A study of Mus musculus with 52 samples.

Results

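The respiratory chain and ATP synthase genes were the genes whose platform symbol begins with Nduf, Sdha to Sdhd, Uqcr, Cox4 to Cox8 or Atp5. The rule found 74 genes, represented by 101 probes, among 9030 named genes and 20794 probes on the arrays. They comprise 31 genes of complex I, 6 of complex II, 7 of complex III, 15 of complex IV (cytochrome c oxidase) and 15 of complex V (ATP synthase). Of the 74 genes, 15 encode core subunits, 53 encode supernumerary or structural subunits and 6 encode assembly factors.

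The study compared 7 mouse embryonic stem (ES) cell lines, #4 (B6), B6NT, B6PGA, HM-1, HM-1 NT, PDCUMNT and ZFCUMNT, in 13 direct comparisons. By the series' own account, where the donor nuclei came from distinguishes the lines, and for a pair of them these were nuclei of cumulus cells (somatic cells that surround the oocyte), cloned by different methods. What PGA, ZF, PD, NT and B6 stand for is not spelled out, no strain, passage, clone number or culture condition is given, and that pair is not named. Each comparison was measured on 4 two-colour arrays, with the second-named line in Cy5 on arrays 1 and 2 and in Cy3 on arrays 3 and 4. HM-1, an ES line known from gene targeting, was the first-named line in 6 of the 13 comparisons, so those 6 share it. Values are log2 ratios of the second-named over the first-named line, read as Cy5 over Cy3. The numerator dye of the deposited ratios is not given in the sources used here, so "higher" and "lower" rest on that reading, and every sign turns at once if it is Cy3 over Cy5. The labels do not say whether the 4 arrays came from separate cultures or RNA extracts, so p-values measure the spread between arrays, which may be technical.

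Oxidative phosphorylation takes electrons from NADH through complex I and from succinate through complex II, passes them by way of complex III and cytochrome c to complex IV, and uses the proton gradient formed on the way to make ATP in complex V. Most subunits are encoded in the nucleus and are built around a small mitochondrially encoded core. ES cells are known for their strong reliance on glycolysis, with a respiratory chain that is present and active.

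Across the arrays 17620 to 20200 probes had a measured value. Each array agreed only weakly with the other comparisons: with the values predicted from the other 12 comparisons as reference, Pearson's r over all features of the line model was above 0 on 46 of 52 arrays and ran from -0.076 to 0.17. Of the 6 arrays below 0, pairs came from #4 (B6) vs B6NT and HM-1 NT vs ZFCUMNT, and the others from HM-1 vs #4 (B6) and PDCUMNT vs ZFCUMNT, so the directions of these arrays are not borne out by the other comparisons. Other arrays of the same comparisons lay above 0, up to 0.17 in HM-1 vs #4 (B6) and 0.14 in #4 (B6) vs B6NT. In B6NT vs ZFCUMNT and #4 (B6) vs ZFCUMNT all 4 arrays lay above 0 but no higher than 0.068 and 0.064. Ratios carry no absolute levels, so the presence of ES cell markers could not be shown. Of 254 tests of 20 pluripotency markers over the 13 comparisons, 17 passed the threshold, 10 higher and 7 lower.

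Promoter sequences of 4 of the 5 genes that differed between lines in the line model described further on are shown first, because the nuclear genes of this pathway are known for shared promoter elements bound by NRF1, ETS factors (GABP) and YY1. The RefSeq promoter table (build GRCm38.p6, 250 bases before to 50 after the transcription start) held 63 of the 74 genes, with 68 promoters in all. The NRF1 core TGCGCA was found in 22.1% of these 68 promoters and in 7.76% of all 32851 promoters of the table. The ETS motif CCGGAA was found in 39.7% against 14.9%, and the YY1 motif AAGATGG in 14.7% against 6.34%. Both strands were searched, the NRF1 core is its own reverse complement, and the motifs do not overlap in the sequences shown. Among the promoters of genes on the array the shares were 12.6%, 24.0% and 6.69%. The sequences below run 5′ to 3′ on the strand of the gene, with any of these motifs in capitals. They are the promoters of Cox7a2 (chr9:79759804-79760103, minus strand), Cox7b (chrX:106015450-106015749, plus strand) and Cox7c (chr13:86046746-86047045, minus strand), which encode small subunits of complex IV, and of Ndufb3 (chr1:58586147-58586446, plus strand), a subunit of complex I.
Cox7a2: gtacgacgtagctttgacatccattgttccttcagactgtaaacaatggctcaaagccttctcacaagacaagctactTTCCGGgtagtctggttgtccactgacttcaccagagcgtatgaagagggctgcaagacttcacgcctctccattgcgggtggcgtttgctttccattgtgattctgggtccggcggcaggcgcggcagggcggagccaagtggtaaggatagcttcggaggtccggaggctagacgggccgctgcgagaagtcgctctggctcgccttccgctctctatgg
Cox7b: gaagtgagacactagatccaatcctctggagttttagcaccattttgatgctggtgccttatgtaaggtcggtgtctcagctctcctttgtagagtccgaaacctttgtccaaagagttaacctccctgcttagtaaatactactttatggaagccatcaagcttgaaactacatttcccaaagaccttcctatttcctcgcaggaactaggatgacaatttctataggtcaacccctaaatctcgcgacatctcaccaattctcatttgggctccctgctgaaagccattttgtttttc
Cox7c: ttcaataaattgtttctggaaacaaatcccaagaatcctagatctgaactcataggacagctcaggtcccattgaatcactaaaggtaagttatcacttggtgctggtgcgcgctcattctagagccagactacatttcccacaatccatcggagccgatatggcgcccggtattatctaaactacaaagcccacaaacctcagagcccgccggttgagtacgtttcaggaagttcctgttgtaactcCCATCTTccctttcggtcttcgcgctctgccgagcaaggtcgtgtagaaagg
Ndufb3: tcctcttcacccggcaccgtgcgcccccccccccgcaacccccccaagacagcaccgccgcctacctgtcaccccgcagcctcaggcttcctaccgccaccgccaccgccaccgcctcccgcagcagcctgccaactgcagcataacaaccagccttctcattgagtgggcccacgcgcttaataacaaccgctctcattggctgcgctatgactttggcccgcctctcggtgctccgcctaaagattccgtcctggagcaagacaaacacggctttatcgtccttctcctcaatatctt
The Cox7a2 window held 1 ETS match, as its reverse complement TTCCGG from base 79, and the Cox7c window held 1 YY1 match, as CCATCTT from base 249, at the transcription start. The windows of Cox7b and Ndufb3 held none of the 3 motifs, and neither did that of Atp5g3 (chr2:73911277-73911576, minus strand), the fifth gene, which is not printed. A match describes letters only, and no binding was measured here.

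The question put to the 13 comparisons was which subunit genes differed between 2 lines hybridised together. Few did. Of 929 tests of a member in a comparison, 8 passed an adjusted p of 0.05 (limma, Benjamini-Hochberg within each comparison), which is 0.861% of them, against 0.532% of the tests over all features. These 8 concerned 8 different genes, with 7 higher and 1 lower in the second-named line, where 0.307% of all tests passed as higher and 0.225% as lower. In all, 87 member tests had an unadjusted p under 0.05. By comparison, this share of members ran from 2.82% (HM-1 NT vs ZFCUMNT) to 20.55% (HM-1 vs PDCUMNT). Over all features the share ran from 3.91% (HM-1 vs #4 (B6)) to 13.6% (#4 (B6) vs ZFCUMNT).

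In 9 comparisons no member passed, and 46 of their 644 member tests had an unadjusted limma p under 0.05. By comparison, that share of members ran from 2.82% (HM-1 NT vs ZFCUMNT) to 14.9% (HM-1 vs HM-1 NT). Over all features it ran from 3.91% (HM-1 vs #4 (B6)) to 11.8% (PDCUMNT vs ZFCUMNT). The share of all features that passed was 0.254% in HM-1 vs HM-1 NT, 0.219% in HM-1 vs #4 (B6), 0.17% in HM-1 vs B6NT, 0.494% in HM-1 vs B6PGA and 0.101% in HM-1 vs ZFCUMNT. It was 1.04% in B6NT vs HM-1 NT, 0.245% in #4 (B6) vs B6NT, 0.292% in HM-1 NT vs ZFCUMNT and 0.763% in PDCUMNT vs ZFCUMNT.

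**Figure D1:**
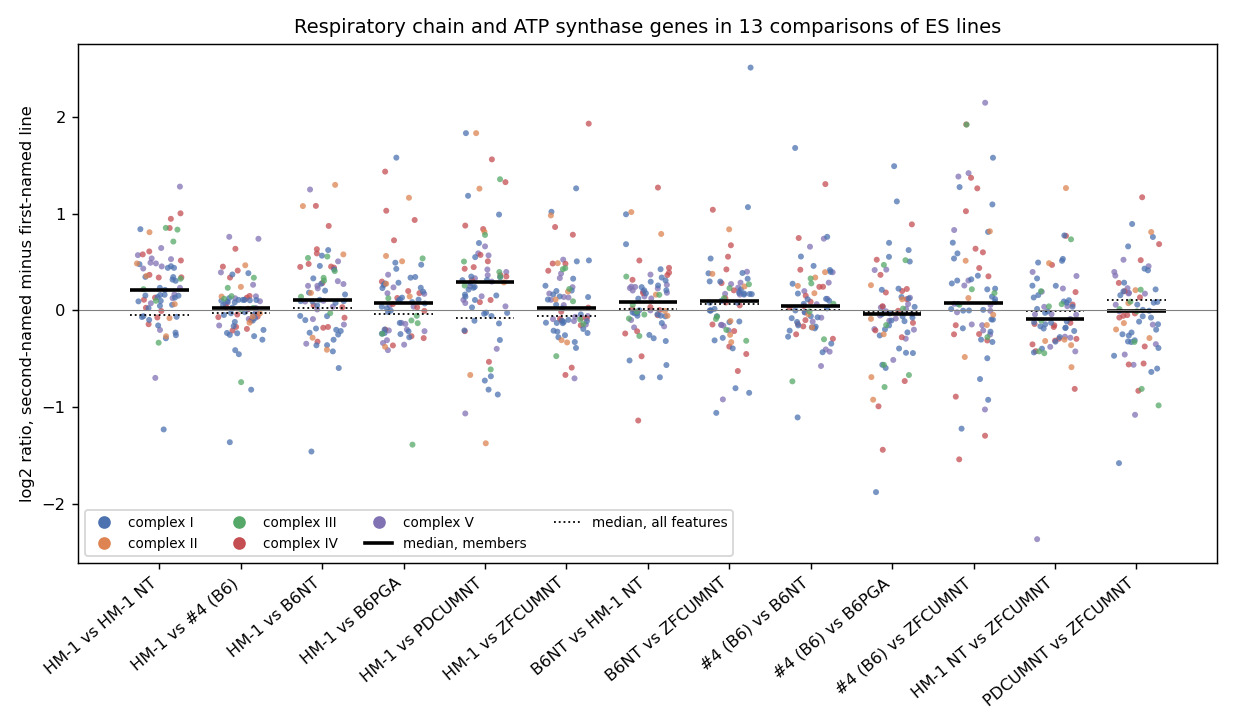
Fitted log2 ratio (second-named minus first-named line) of every tested member in each of the 13 comparisons, coloured by complex, with the median of the members (solid line) and of all features (dotted line). The members' median lies farthest above that of all features in HM-1 vs PDCUMNT (0.29 against -0.08) and HM-1 vs HM-1 NT (0.22 against -0.05).

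Ndufb3, a supernumerary subunit in the membrane arm of complex I, was higher in PDCUMNT than in HM-1. Its 4 arrays read 1.19, 1.60, 1.27 and 0.69, all above 0 in both dye orientations. The fitted value was 1.18 ± 0.21 (SE, n = 4 arrays), a 2.27-fold difference, with an adjusted p of 0.0016 by limma. It was the 1 of 73 members that passed in HM-1 vs PDCUMNT, where 1.14% of all features passed. In no other comparison did Ndufb3 pass, and its values there lay between -0.60 (PDCUMNT vs ZFCUMNT) and 0.46 (HM-1 vs HM-1 NT). The call held when each of the 4 arrays was left out in turn, with adjusted p-values from 0.0023 to 0.025.

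Ndufa13, a complex I subunit needed for its assembly and also known as GRIM-19, was higher in ZFCUMNT than in B6NT. Only 3 arrays measured it there, with 0.82 on array 1, 2.95 on array 3 and 3.89 on array 4, so all lay above 0 but the pair of one dye orientation far above the single array of the other. The fitted value was 2.51 ± 0.45 (SE, n = 3), with an adjusted p of 0.013 by limma, and it was the 1 of 69 members past the threshold, against 0.124% of all features. Without array 3 the adjusted p was 0.091, and without array 4 it was 0.24. In the 11 other comparisons where it could be tested it did not pass. Set against HM-1, both lines read near 0: 0.14, -0.09, -0.29 and 0.62 for B6NT, and -0.36, -0.32, 0.48 and 0.04 for ZFCUMNT. Ndufa13 was not among the members tested in the line model described below, so whether its comparisons add up was not tested.

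Cox7a2, the widely expressed isoform of subunit 7a of cytochrome c oxidase, was lower in B6PGA than in #4 (B6). Arrays 2, 3 and 4 read -2.59, -1.12 and -2.32, while array 1 read 0.29. The fitted value was -1.44 ± 0.36 (SE, n = 4), with an adjusted p of 0.027 by limma. This was the 1 of 71 members called in that comparison, where 1.22% of all features passed. The call was lost without array 2 (-1.02, adjusted p = 0.27) and without array 4 (-1.16, adjusted p = 0.22). It was also lost with arrays scaled to equal spread (-1.18, adjusted p = 0.082) and with array weights (-1.18, adjusted p = 0.20).

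In #4 (B6) vs ZFCUMNT 5 of 72 members passed, 6.94%, against 0.935% of all features, and all 5 were higher in ZFCUMNT, as were 0.662% of all features. They were Atp5k (subunit e) and Atp5md (DAPIT), small membrane subunits of ATP synthase, Cox6b1 and Cox6c of complex IV, and Uqcr11 of complex III. Their values were set by the pair of arrays with ZFCUMNT in Cy5. Atp5k read 4.03 and 1.26 on arrays 1 and 2 but 0.51 and -0.13 on arrays 3 and 4, and was fitted at 1.42 ± 0.31 (SE, n = 4; limma, adjusted p = 0.012). Atp5md read 6.19, 1.31, 0.58 and 0.50 and was fitted at 2.15 ± 0.50 (limma, adjusted p = 0.021). For both ATP synthase subunits array 1 was far above the other 3.

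Cox6b1, the widely expressed isoform of a subunit on the intermembrane side, read 3.06 and 4.60 on arrays 1 and 2, and 0.09 and -0.06 on arrays 3 and 4. Neither of its probes passed singly (1.20 ± 0.58, adjusted p = 0.34, and 1.41 ± 0.48, adjusted p = 0.15, limma over probes), against 1.92 ± 0.43 for the gene. The gene value averages the probes measured on each array, and 1 probe value of Cox6b1 was a top value treated as not measured. An array with 1 probe measured rests on that probe, so the gene value need not lie between those of the probes. Uqcr11 read 3.13, 4.81, -0.33 and 0.07, with a fitted value of 1.92 ± 0.50 (SE, n = 4). So for Cox6b1 and Uqcr11 both arrays of one orientation lay far above 0 and both of the other near it. Cox6c read 3.74, 0.80, 0.36 and 0.59, with only array 1 far above the rest, and was fitted at 1.37 ± 0.35.

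Arrays 1 and 2 of #4 (B6) vs ZFCUMNT had limma array weights of 0.31 and 0.47, and arrays 3 and 4 of 1.35 and 0.95. The number of members called there was 1 without array 1, 2 without array 2 and 6 without array 3 or array 4, while 40, 72, 374 and 334 of all features passed. None of the 5 genes passed with array weights or with the arrays scaled to equal spread, where the values fell to between 0.90 (Cox6c) and 1.39 (Atp5md).

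**Figure D2:**
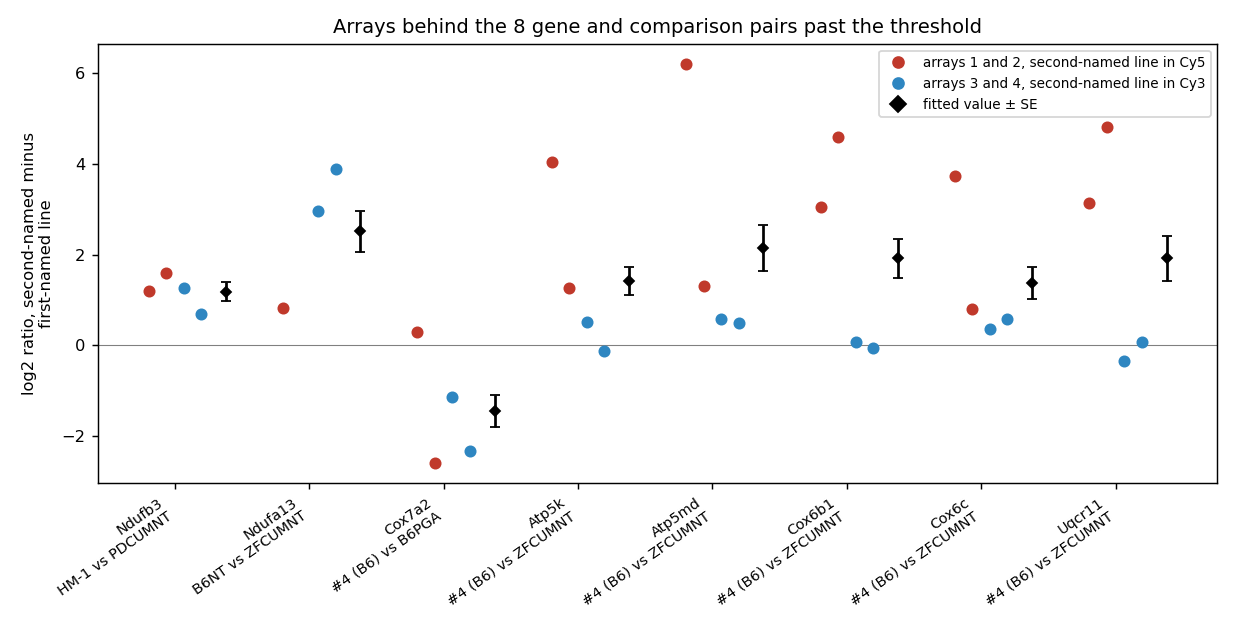
Log2 ratio on each array (circles, coloured by the dye of the second-named line) for the 8 member tests that passed, with the fitted value ± SE (diamonds). Ndufb3 is above 0 on all 4 arrays, whereas the 5 genes of #4 (B6) vs ZFCUMNT have high values on array 1 or on arrays 1 and 2 and values between -0.33 and 0.59 on arrays 3 and 4.

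Since the 13 comparisons link all 7 lines, the level of each line relative to HM-1 was also estimated from direct and indirect comparisons together. Of 74 members, 58 could be tested in this line model, and 5 differed between lines (moderated F over 6 lines, limma, adjusted p under 0.05). This is 8.62% of the tested members, against 4.76% of all 11291 features tested. The 5 were Ndufb3 of complex I, Cox7a2, Cox7b and Cox7c of complex IV, and Atp5g3 of ATP synthase, and 4 of them are supernumerary subunits, a kind that made up 44 of the 58. An unadjusted p under 0.05 was found for 15 of the 58, these 5 included, which is 25.9% against 17.9% of all features. A lack-of-fit test asked whether the 13 comparisons add up to 7 line levels. No member and no other feature departed from this at an adjusted p under 0.05 (limma). At an unadjusted p under 0.05, 2 of 58 members and 5.52% of all features departed from it.

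Cox7a2 showed the broadest difference. Against HM-1, its 4 arrays read 0.91, 0.94, 1.20 and 0.96 for HM-1 NT, 1.20, 1.31, 1.001 and 0.81 for B6NT, and 0.87, 0.95, 0.84 and 0.79 for ZFCUMNT. For PDCUMNT they read 1.26, 1.002, 1.51 and 1.53, and for #4 (B6) 0.70, 0.07, 1.12 and 0.66. All 20 of these readings lay above 0, in both dye orientations, and those of B6PGA, at 0.57, 0.23, -0.16 and 0.16, lay around 0 and overlapped only those of #4 (B6).

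No single comparison with HM-1 passed the threshold for Cox7a2, the nearest being PDCUMNT (1.33 ± 0.36; limma, adjusted p = 0.052). That call turned on the processing: HM-1 vs PDCUMNT passed with top values kept, with array medians subtracted, with arrays scaled to equal spread and with array weights. HM-1 vs B6NT passed with equal spread and with array weights, and the comparisons of HM-1 with HM-1 NT and ZFCUMNT with array weights. In the line model, the lines other than B6PGA stood 0.90 ± 0.21 (#4 (B6)), 0.97 ± 0.22 (B6NT), 1.01 ± 0.27 (PDCUMNT), 1.17 ± 0.24 (HM-1 NT) and 1.22 ± 0.20 (ZFCUMNT) above HM-1. Each of these 5 passed (limma, adjusted p from 0.00015 to 0.028), and B6PGA stood at -0.17 ± 0.27 (adjusted p = 0.95). The F-test over lines had an adjusted p of 9.3e-05 and stayed past the threshold without any 1 array, with adjusted p-values from 1.2e-06 to 0.00027. The neighbouring estimates of these 5 lines differed by less than 1 SE.

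Ndufb3 had its highest estimate in PDCUMNT, 1.05 ± 0.15 above HM-1 (limma, adjusted p = 2.1e-05). HM-1 NT and B6NT stood at 0.43 ± 0.13 and 0.43 ± 0.12, ZFCUMNT at 0.32 ± 0.11, #4 (B6) at 0.24 ± 0.12 and B6PGA at -0.04 ± 0.15, none of which passed singly. Between lines its adjusted p was 7.0e-05. Without the line PDCUMNT it was 0.12, and without the comparison HM-1 vs PDCUMNT 0.067. In PDCUMNT vs ZFCUMNT, which bears on the same line, arrays 3 and 4 read -1.54 and -0.84 and arrays 1 and 2 read 0.07 and -0.10.

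Cox7b, a small subunit of complex IV, was also highest in PDCUMNT, at 1.43 ± 0.32 above HM-1 (limma, adjusted p = 0.0063), followed by B6NT at 0.96 ± 0.25 (adjusted p = 0.034). Directly against HM-1 the PDCUMNT arrays read 0.61, 1.56, 1.35 and 2.72, all above 0, for a fitted 1.56 ± 0.42 with an adjusted p of 0.051, which passed with top values kept, array medians subtracted, array weights or dim values left out. The 4 remaining lines lay between 0.10 and 0.47 and did not pass. Its F-test had an adjusted p of 0.011, which was 0.25 without PDCUMNT, 0.058 without HM-1 NT, 0.16 without the comparison HM-1 vs PDCUMNT and 0.052 without array 4 of that comparison. Of its probes, 1 could be tested singly in the line model and it passed (adjusted p = 0.034).

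Cox7c, another small complex IV subunit, was higher than in HM-1 by 0.92 ± 0.19 in B6NT (limma, adjusted p = 0.0025). The 5 other lines lay between 0.51 and 0.74 above HM-1 and did not pass singly, the nearest being ZFCUMNT (adjusted p = 0.052) and HM-1 NT (adjusted p = 0.058). On the 24 arrays of the 6 comparisons with HM-1 the readings ran from -0.12 to 1.85, with the 1 reading below 0 on array 4 of #4 (B6). The F-test had an adjusted p of 0.010. With these values HM-1 was the lowest of the 7 lines for Cox7c, Cox7b and Atp5g3.

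Atp5g3 encodes subunit c of the ATP synthase rotor ring. It stood above HM-1 by 0.60 ± 0.13 in HM-1 NT, 0.58 ± 0.12 in #4 (B6), 0.50 ± 0.12 in B6NT and 0.42 ± 0.11 in ZFCUMNT, all past the threshold (limma, adjusted p from 0.0018 to 0.025). PDCUMNT, at 0.42 ± 0.15, and B6PGA, at 0.23 ± 0.15, did not pass. The gene also gave a brighter Cy5 signal whatever the line, with a dye term of 0.35 ± 0.06 (limma, adjusted p = 6.4e-06), so that in HM-1 vs PDCUMNT, for example, arrays 1 and 2 read 1.29 and 0.64 and arrays 3 and 4 read 0.39 and 0.04. The F-test over lines had an adjusted p of 0.0015, which was 0.099 with no dye term and 0.055 without the line B6NT.

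**Figure D3:**
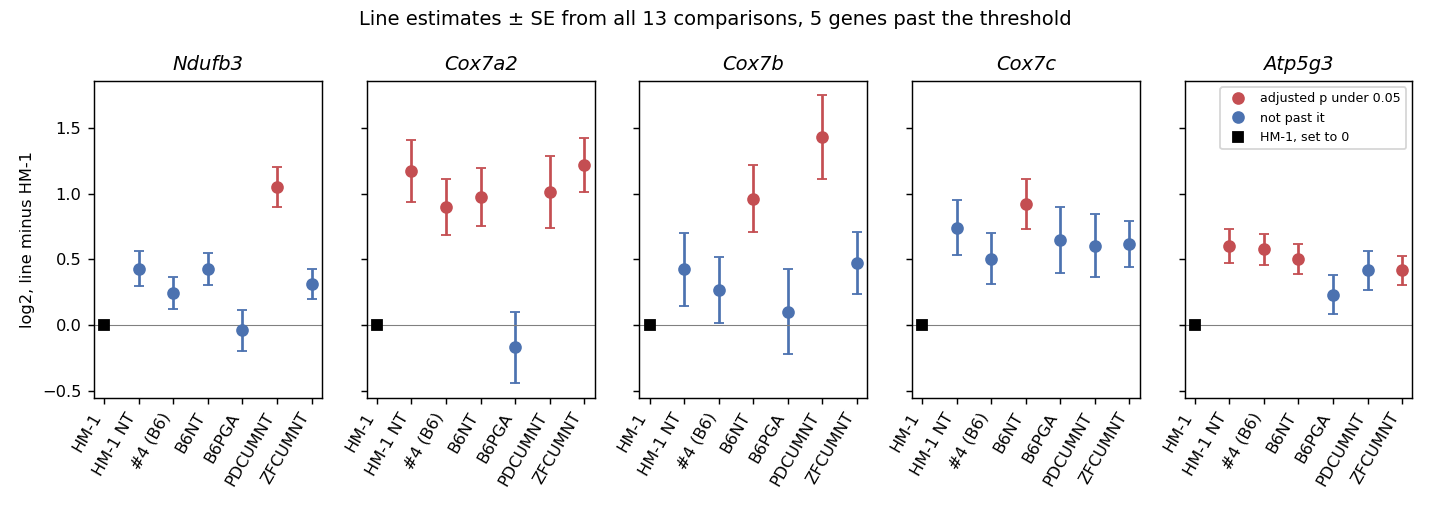
Estimated log2 difference from HM-1 (set to 0) in the other 6 lines ± SE for the 5 members that differed between lines, with estimates past an adjusted p of 0.05 in red. Cox7a2 is about as high in 5 lines and near 0 in B6PGA, and Ndufb3 and Cox7b peak in PDCUMNT.

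Over the 6 lines, the members whose difference from HM-1 passed numbered 4 in B6NT (all features 1.37%), 2 in #4 (B6) (1.4%), 2 in HM-1 NT (1.36%), 5 in PDCUMNT (2.65%), 0 in B6PGA (0.939%, with 4 members at an unadjusted p under 0.05) and 3 in ZFCUMNT (1.96%), of 58 each. All 16 were higher than in HM-1, which all 6 differences share. Over all features 1.61% of such differences passed, and 0.97% passed as higher than in HM-1. Beyond the 5 genes above, they included Uqcrh, the hinge protein of complex III, at 1.34 ± 0.33 in PDCUMNT (limma, adjusted p = 0.015). Ndufaf7, an assembly factor of complex I, stood at 0.61 ± 0.17 in PDCUMNT (adjusted p = 0.036), and Atp5k at 0.64 ± 0.18 in ZFCUMNT (adjusted p = 0.049). The F-test over lines passed for none of these, with adjusted p-values of 0.080, 0.098 and 0.13. The Uqcrh arrays of HM-1 vs PDCUMNT read 1.45, 0.17, 3.41 and 0.39, of which 2 are far above the others. In PDCUMNT vs ZFCUMNT, which enters the same estimate, they read 0.76, -2.0 and -2.15 on arrays 1, 3 and 4.

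Described over the whole list, without a test, the members lay above the rest of the array mainly in 2 comparisons. For HM-1 NT against HM-1, 57 of 74 members were above 0 (77.0% against 44.8% of all features), with medians of 0.27, 0.28, 0.32 and 0.14 on the 4 arrays, all above those of all features on the same arrays. In HM-1 vs PDCUMNT 54 of 73 were above 0 (74.0% against 42.6%), with array medians of 0.42, 0.45, 0.12 and 0.11, again all above those of all features. Over all 24 arrays that compared a line with HM-1, the members' median was above that of all features on 22. The difference ran from -0.06 to 0.44. On the 28 arrays without HM-1 in first place it was above on 16, between -0.23 and 0.25.

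**Figure D4:**
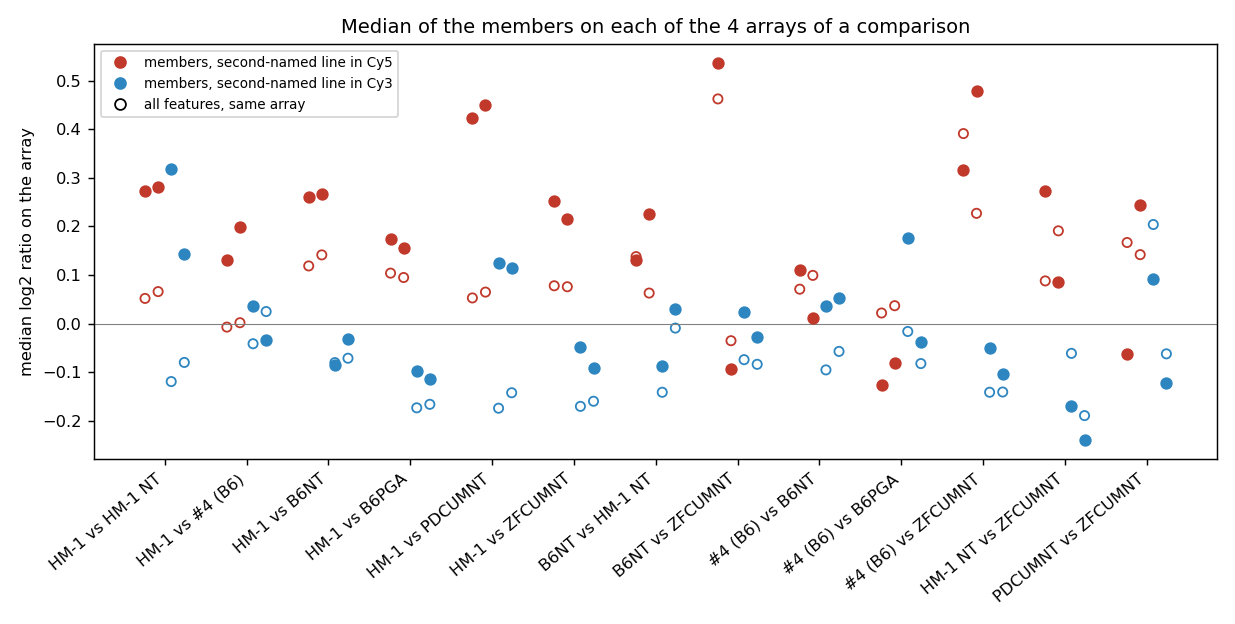
Median log2 ratio of the members (filled circles) and of all features (open circles) on each of the 52 arrays, coloured by the dye of the second-named line. In HM-1 vs PDCUMNT and HM-1 vs HM-1 NT all 4 filled circles lie above 0 and above their open circles, while in HM-1 vs B6NT, HM-1 vs B6PGA and HM-1 vs ZFCUMNT the filled circles are above 0 on the arrays with Cy5 and below 0 on those with Cy3.

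Marker lists of other cells and the companion lists of related pathways did not all lie on the same side as the members, and no list was tested as a set. For HM-1 NT against HM-1, 18 of 24 fibroblast and feeder markers were above 0 with a median of 0.37 (array medians from 0.24 to 0.62). None of them passed the limma threshold and 7 had an unadjusted p under 0.05, as did 6.4% of all features. Their part in the members' shift was not tested. In HM-1 vs PDCUMNT, where the members' median was the highest, 12 of these 24 markers were above 0 with a median of 0.03. Of the endoderm markers 1 of 12 was above 0 in the first of these comparisons (median -0.21) and 4 of 9 in the second (-0.07), and the 5 trophectoderm markers had medians of 0.27 and -0.47. Medians in the same order were 0.33 and 0.63 over the 3 genes for cytochrome c and subunits outside the symbol rule, 0.22 and 0.09 for glycolysis, 0.20 and 0.30 for ATP export, channels and oxidative defence, and 0.11 and 0.16 for the tricarboxylic acid cycle. They were -0.03 and 0.11 for assembly factors outside the rule and 0.08 and -0.03 for regulators of mitochondrial gene expression. Cumulus markers, with 3 genes measured, had 0.25 and 0.71. In HM-1 vs B6PGA 23 of the 24 fibroblast and feeder markers were above 0 with a median of 0.98 and 9 called, while the members' median was 0.08. Of all features 0.494% were called in that comparison. In bulk samples such as these, fewer cells of a type and less RNA per cell cannot be told apart.

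By complex, the shift was smallest in complex I. In HM-1 vs HM-1 NT the median was 0.14 over 31 genes of complex I, 0.21 over 6 of complex II, 0.33 over 7 of complex III, 0.34 over 15 of complex IV and 0.46 over 15 of complex V, against -0.05 for all features. In HM-1 vs PDCUMNT the medians were 0.15 over 30 genes of complex I, 0.55 over 6 of complex II, 0.40 over 7 of complex III, 0.43 over 15 of complex IV and 0.30 over 15 of complex V, against -0.08. The 6 assembly factors had medians below 0, -0.11 over the 5 tested in HM-1 vs PDCUMNT and -0.15 for HM-1 NT against HM-1. Differences between complexes were not tested.

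In the line model PDCUMNT had the highest estimate for 19 of the 58 members, 32.8% against 15.98% of all features, and HM-1 NT for 15, 25.9% against 17.5%. HM-1 was the lowest line for 12, 20.7% against 7.11%, and B6PGA for 16, 27.6% against 20.5%. PDCUMNT and B6PGA entered the fewest comparisons and had the largest SEs, which favours extremes in both directions. Over all features PDCUMNT was also the lowest line for 30.6% and B6PGA the highest for 20.2%, against 13.8% of the members in each case. Median differences from HM-1 were 0.24 in PDCUMNT and in HM-1 NT, 0.16 in ZFCUMNT, 0.12 in B6NT, 0.08 in #4 (B6) and 0.02 in B6PGA. For complex IV they were 0.33 in PDCUMNT and 0.31 in HM-1 NT, but 0.01 in B6PGA, and for complex I they stayed between 0.01 and 0.13 in all 6 lines.

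**Figure D5:**
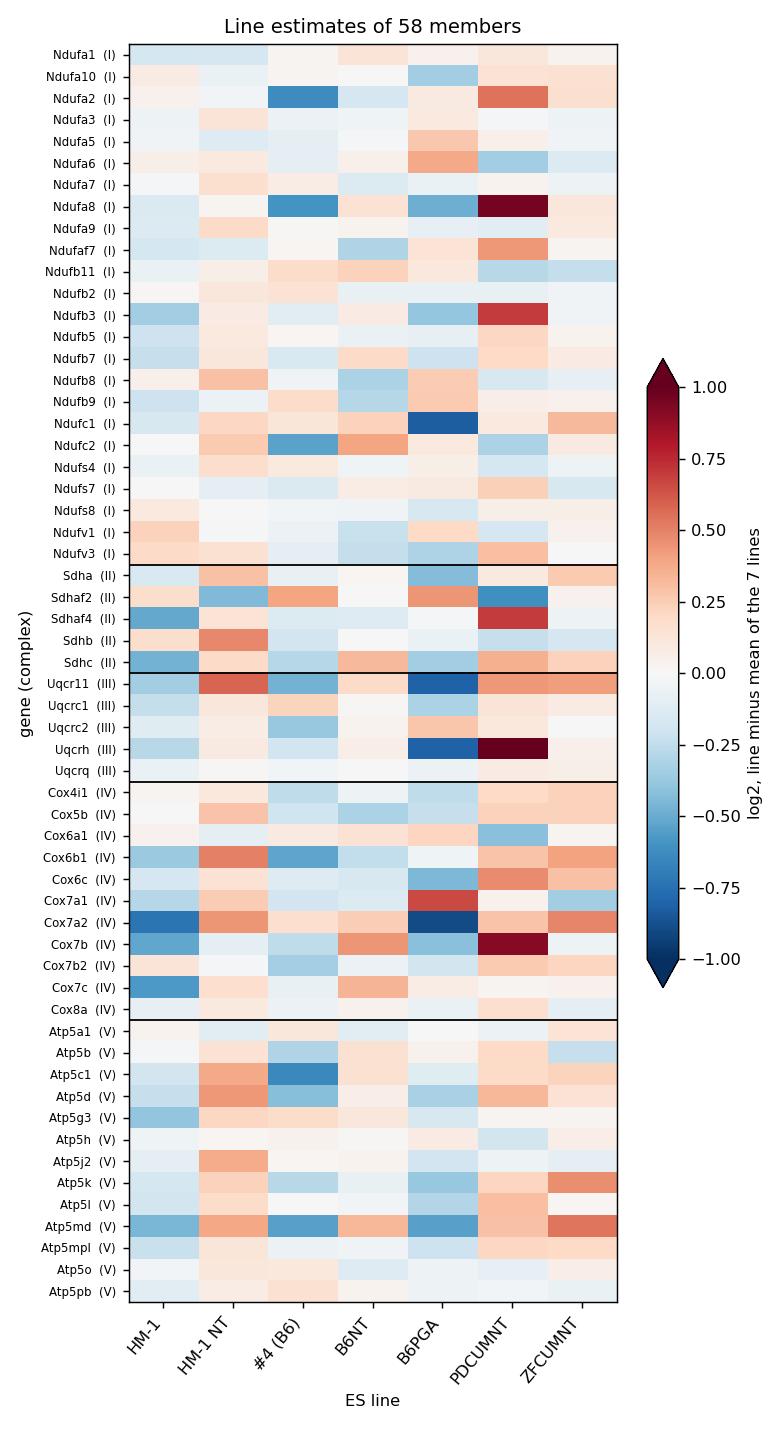
Estimated log2 level of the 58 members in each of the 7 lines, as the difference from the gene's mean over the lines, ordered by complex, with the colour scale ending at -1 and 1. HM-1 is below the mean of the lines for 15 of 24 genes of complex I, 3 of 5 of complex II, 5 of 5 of complex III, 8 of 11 of complex IV and 12 of 13 of complex V, and the PDCUMNT column is the highest for 19 genes.

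Complex II and III members stayed below the threshold in the F-test over lines. The 2 lowest p-values in complex II belonged to Sdhc, a membrane anchor of succinate dehydrogenase (range of the 7 lines 0.82; limma, adjusted p = 0.066), and to Sdhb, its iron-sulfur subunit (0.71, adjusted p = 0.17). Sdhc was estimated above HM-1 in all 6 lines, from 0.12 ± 0.28 in B6PGA to 0.82 ± 0.29 in PDCUMNT, and Sdhb below HM-1 in all but HM-1 NT (0.31 ± 0.19). In complex III they were Uqcrh (range 1.87) and Uqcr11 (range 1.40, adjusted p = 0.17), each lowest in B6PGA.

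Several complex IV subunits exist as isoforms, of which Cox6a2, Cox7a1 and Cox8b are known from heart and skeletal muscle and Cox6b2 from testis, and Cox4i1, Cox6a1, Cox6b1, Cox7a2 and Cox8a are widely expressed. None of these muscle and testis isoforms passed in any comparison. Their fitted values ran from -0.32 to 1.03 for Cox6a2, from -0.89 to 1.31 for Cox6b2, from -0.59 to 1.43 for Cox7a1 and from -1.29 to 1.93 for Cox8b, with lowest adjusted limma p-values of 0.23, 0.36, 0.48 and 0.48. At an unadjusted p under 0.05 these 4 genes had 1, 3, 1 and 1 comparisons. Cox7b2, an isoform of Cox7b, did not pass either, with fitted values from -0.67 to 1.26 and a lowest adjusted limma p of 0.39. The Cox7a1 arrays disagreed among themselves, as in HM-1 vs B6PGA with 2.46, -0.21, -0.54 and 4.04. Of the widely expressed forms, Cox8a and Cox4i1 moved little, between -0.35 and 0.43 and between -0.28 and 0.60, and Cox6a1 between -0.47 and 0.69, none past the threshold.

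The spread of a member around the fit, its residual SD, ran from 0.21 to 2.32 on the log2 scale with a median of 0.77, against 0.90 for all features. It was lowest in complex V and complex I (medians 0.61 and 0.67) and highest in complex II (0.95), and it was 1.11 for assembly factors. Atp5j, a peripheral stalk subunit of ATP synthase, had the highest value of the list, 2.32, and Uqcrq, a small subunit of complex III, had one of the lowest, 0.28. Where a gene had several probes, their values correlated little. Over 34 probe pairs of 21 members, Pearson's r over arrays ran from -0.35 (Cox6a1) to 0.43 (Atp5a1) with a median of 0.02. This is given as a description, since the probes share arrays and the dye term was left in. Few of these genes passed a threshold, so r near 0 cannot show whether their probes agree on a difference between lines. Dye also left a mark, with 24 of 74 members past the threshold for the dye term, 32.4% against 30.3% of all features.

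Companion lists of related pathways had 5 calls in the 13 comparisons. The share of tests that passed was 1.13% of 177 for tricarboxylic acid cycle enzymes, 0.602% of 166 for glycolysis, 0.546% of 183 for regulators of mitochondrial gene expression and 0.362% of 276 for assembly factors outside the rule, against 0.532% over all features. Of 14 tricarboxylic acid cycle enzymes, Suclg1 (succinyl-CoA ligase) was lower in B6PGA than in #4 (B6), at -0.83 ± 0.19 (limma, adjusted p = 0.010), and Ogdh (2-oxoglutarate dehydrogenase) was lower in ZFCUMNT than in #4 (B6), at -2.60 ± 0.49 (adjusted p = 0.0026). Of 13 glycolysis enzymes, Ldha (lactate dehydrogenase A) was higher in ZFCUMNT than in #4 (B6), at 1.51 ± 0.38 on 3 arrays (adjusted p = 0.040). Among 23 assembly factors outside the symbol rule Cox10, an enzyme on the way to the heme A of complex IV, was lower in B6PGA than in HM-1, at -3.51 ± 0.67 on 3 arrays (adjusted p = 0.0041). Polg, the mitochondrial DNA polymerase, was higher in B6PGA than in #4 (B6), at 1.54 ± 0.37 (adjusted p = 0.018), 1 of 15 regulators of mitochondrial gene expression. Whether these 5 calls hold without single arrays or with other processing was not tested. Those of Ogdh and Ldha come from #4 (B6) vs ZFCUMNT, where the features called fell from 147 to 40 without array 1. No call by limma was made in 39 tests of the 3 measured genes for cytochrome c and subunits outside the rule. Nor was any made in 142 tests of 11 genes of ATP export, channels and oxidative defence. In the same order, 7 and 23 of these tests had an unadjusted p under 0.05. Over all features that share ran from 3.91% to 13.6% by comparison.

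The 2 comparisons of HM-1 with HM-1 NT and of #4 (B6) with B6NT, set side by side because of the shared letters in the line names (the labels do not say whether these lines derive from each other), were also tested against each other. None of 67 members passed the test of this difference (limma, adjusted over 15227 features, of which 30 passed), and 4 had an unadjusted p under 0.05. Their median difference was 0.18 on the log2 scale.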

How the data were processed

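Gene expression in 7 mouse ES lines was measured on 52 two-colour arrays, 4 for each of 13 comparisons. The deposited table holds 1 ratio per probe and array on a log2 scale. The labels give the dye of each line but no scanner, background correction or normalization, and their protocol text also speaks of organs and of a pooled reference, whereas the channel labels, used here, name an ES line in both channels. The commonest deposited values fit log2 of a plain channel ratio plus 1 constant per array. That constant was taken from the top value of the array, read as a ratio of 100000. The commonest value was the constant plus log2 of a ratio of integers up to 5 on 52 of 52 arrays (tolerance 0.0015). This bears on the log base, fits 1 scaling constant per array for these values, and marks values of very dim spots. Whether the other values carry a further normalization was not tested. The marked values made up 4.23% of all values and 3.53% of the members' values. With the same integer ratios shifted by small amounts, 1.27% of all values matched on average, so part of the marked values may be coincidence. On each array 20 to 174 probes shared 1 top value, the constant plus log2 of 100000, and these were treated as not measured.

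Ratios were turned by the dye labels and probes were averaged per gene. limma 3.58.1 in R 4.3.3 fitted all 52 arrays with a coefficient per comparison and a dye term, testing features measured on at least 3 of 4 arrays in both dye orientations. A line model replaced the 13 coefficients by 6 lines minus HM-1. Benjamini-Hochberg adjustment was used, at a threshold of 0.05. Both fits were tested on simulated data. The members and the companion lists were chosen with earlier results of these data known. Genes named are members past a threshold and the 2 members of each complex with the lowest F-test p in the line model. Tissue isoforms of a subunit are named too. Atp5j, Uqcrq, Atp5a1, Cox7b2 and the called genes of other pathways were named after their values were seen. Alternatives concerned top values, centring, spread, turning, the dye term, an array-number block, array weights, filters, single probes, single comparisons and left-out arrays, lines and comparisons. Leaving out dim values was chosen after seeing the data. Sequences are from RefSeq. Endoderm markers had 3 calls in 129 tests (2.33%), trophectoderm markers 2 in 63 (3.17%), cumulus markers 0 in 32 (limma, 2 at an unadjusted p under 0.05) and fibroblast markers 17 in 300 (5.67%). Over all features 0.532% of tests were called.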

Additional observations from a re-analysis of the deposited data

Results flagged for a closer look

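In #4 (B6) vs ZFCUMNT, Atp5md (fitted value 2.15) and Cox6c (1.37) each had 1 array far from the other 3. The gap of array 1 to its nearest neighbour was 0.86 of the whole range for Atp5md and 0.87 for Cox6c, above Dixon's 95% critical value for that number of samples. Of 20 groups of 4 arrays tested in this way 2 stood out. These groups were the called genes measured on 4 arrays, and the members' median in each comparison. Both that stood out were called genes. Chance alone singles out about 1 in 20 of groups not picked by their values. The genes were tested because they had been called, so this rate is not a fair yardstick for them.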

How the results depend on the processing

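The 8 calls in the 13 comparisons became 15 with unturned ratios (3 of the 8 kept), 15 with array weights (2 kept), 15 at a threshold of 0.1, and 0 with each comparison fitted alone by limma, where 76 member tests had an unadjusted p under 0.05. Over all features the calls went from 1096 to 4511 with unturned ratios and to 1946 with array weights. The 5 calls of the line model became 8 with arrays scaled to equal spread and 10 with array weights, all 5 kept in both. They became 10 with unturned ratios (1 kept, Atp5g3) and 3 with all 4 arrays required, which left 40 members testable. Over all features the line model called 4.76% in the main fit, 6.4% with equal spread and 8.17% with array weights. It called 22.2% with unturned ratios and 8.56% with all 4 arrays required, so the share over all features rose in each of these settings. Without the line PDCUMNT or the comparison HM-1 vs PDCUMNT the line model called 3 members. In the same order it called 438 of 11788 and 443 of 11400 features, against 538 of 11291 in the main fit. With unturned ratios the median of members was 0.058 in HM-1 vs HM-1 NT, 0.087 in HM-1 vs PDCUMNT, -0.027 in #4 (B6) vs B6NT and 0.23 in HM-1 NT vs ZFCUMNT. Unturned, the sign of Ndufa13 in B6NT vs ZFCUMNT reversed (-1.91), as did that of Cox7a2 in #4 (B6) vs B6PGA (0.29). With 2 arrays of each dye orientation in a comparison, a difference between lines largely cancels in unturned ratios. The unturned values therefore do not bear on whether the calls hold. The cause of the other changes was not tested.

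Leaving out 1 array at a time gave 5 to 11 calls in the 13 comparisons (5 without array 1 of #4 (B6) vs ZFCUMNT), 4 to 7 in the line model, and a median of -0.013 to 0.052 in #4 (B6) vs B6NT. With the replicate block, by array number within dye orientation, 7 of the 8 calls in the 13 comparisons and all 5 of the line model passed, and the exception was Uqcr11 (adjusted p = 0.055). Over all features 1000 tests passed in the 13 comparisons with this block, and 4.51% of features in the line model. Residuals of arrays with the same number in different comparisons correlated at -0.033 on average, and those with other numbers likewise at -0.033. This average mixes comparisons that share a line with others that do not, and ignores whether the line was named first or second. It therefore cannot show whether arrays with the same number shared a culture or RNA extract. With dim values left out, 8 member tests passed, 6 of them among the main 8, and 5 in the line model, all of the main 5. Over all features 1081 tests passed in the 13 comparisons then, and 5.54% of features in the line model. Fold changes of dim probes are limited by the signal over background, which ratios do not show.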
